A study of Homo sapiens with 14 samples.

Results

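Complex I, or NADH:ubiquinone oxidoreductase, is the entry point for electrons from NADH into the respiratory chain. The genes described here are those of its subunits carried in the nucleus, picked as protein-coding symbols that begin with NDUFA, NDUFB, NDUFC, NDUFS, NDUFV or NDUFAB followed by a digit, with the NDUFAF assembly factors left out. The pattern found 40 of the 27142 genes in the count table. Of these, 37 encode subunits, and 3 do not: NDUFA4 and NDUFA4L2, which carry the name but belong elsewhere, and NDUFC2-KCTD14, a read-through transcript of NDUFC2 and its neighbour.

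Polyadenylated RNA was sequenced from IMR90, an established fibroblast line from human fetal lung, with the genotype label WT. Cells were kept in 20 uM 2',3'-dideoxycytidine (ddC) for 24, 48, 72 or 96 h, with 3 libraries at each time, and the untreated cells had 2 libraries. The labels give the untreated cells a water vehicle and 4 days, whereas the design text has them at 0 h, so how long they had been in culture is uncertain. A single untreated group served all ddC times. Time in ddC and time in culture therefore cannot be told apart between treated times. Against untreated cells they cannot be told apart either, as the time of those cells is uncertain. ddC is a cytidine analog that lacks the 3'-hydroxyl group, and it stops the polymerase that copies mitochondrial DNA (mtDNA). The study set the times against untreated cells to follow transcripts as mtDNA is lost. The amount of mtDNA itself was not measured here, and the libraries are described as biological replicates of a single line.

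Complex I is built from products of both genomes. mtDNA encodes the hydrophobic ND proteins of the membrane arm, which pump protons, and the nucleus encodes everything else. The matrix arm holds the N module, where NADH is oxidized, and the Q module, where electrons reach ubiquinone. Core subunits carry the flavin, the iron-sulfur clusters and the quinone site, and accessory subunits surround them and are needed for assembly or stability. Cells that lose mtDNA lose the ND proteins and can no longer complete the enzyme. The table held 0 of the 7 ND genes of mtDNA, so they were not analysed here.

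All 40 genes passed the filter on low counts. Total counts per library lay between 9398703 and 12147402. Levels are in CPM, counts scaled to a library total of 1e6 reads. A gene is said to be called where its p from edgeR's quasi-likelihood test, adjusted by Benjamini and Hochberg's method over the 13371 genes that passed the filter, was under 0.05. The fibroblast genes COL1A1, COL1A2, COL3A1, VIM, PDGFRB, THY1 and FN1 stood between 282.3 CPM (PDGFRB) and 22830 CPM (COL1A1) in every library, while S100A4 of the same list had 4.58 to 7.45 CPM. Of the epithelial, endothelial and blood cell markers, CDH1, PECAM1, CDH5 and CD3E were at 0 throughout. KRT18 (39.4 to 61.2 CPM), TEK (34.0 to 45.6 CPM), CD68 (42.9 to 60.7 CPM), KRT8 (6.52 to 12.6 CPM) and KRT19 (2.43 to 5.83 CPM) were present in every library, and the rest had at most 1.10 CPM.

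In untreated cells, transcripts of the 37 subunits summed to 2208 and 2147 CPM. Per kilobase of transcript, NDUFS5, an accessory subunit of the proximal membrane arm, stood highest, at 259.8 CPM per kb. It was followed by NDUFA13 at 175 CPM per kb, NDUFA1 at 142.5 CPM per kb and NDUFS6 at 111 CPM per kb. The lowest subunits were NDUFV3 at 16.3, NDUFA10 at 10.5 and NDUFA5 at 6.18 CPM per kb. NDUFA4L2 lay under all of them, at 1.84 CPM per kb. For NDUFA10 and NDUFA5 the table gives the length of a noncoding transcript model, 7948 and 5735 bases, against a median of 886.5 bases over the 40 genes. Their level per kilobase is therefore tied to that choice of transcript. NDUFC2 and NDUFC2-KCTD14 share exons, and their counts moved together (ratio of the read-through to NDUFC2 from 0.672 to 0.746 in the 14 libraries), so neither level can be assigned with certainty. KCTD14, the neighbour that the read-through also overlaps, had a mean of only 1.60 CPM, against 69.4 CPM for NDUFC2-KCTD14.

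The subunit transcripts stayed close to their untreated levels for the whole exposure. The sum over the 37 subunits was 2178 ± 43.5 CPM in untreated cells (SD, n = 2). It was 2249 ± 90.7 CPM at 24 h, 2307 ± 113 CPM at 48 h, 2223 ± 126 CPM at 72 h and 2310 ± 41.1 CPM at 96 h (SD, n = 3 each). The highest of the 14 libraries exceeded the lowest by a factor of 1.14. Single genes varied more. NDUFB1, an accessory subunit of the distal membrane arm, had the widest range of the 37, a factor of 1.58 between 24 h replicate 1 at 25.9 CPM and 48 h replicate 2 at 16.4 CPM. The matrix arm subunit NDUFS1 stayed within a factor of 1.16, and NDUFA10 within 1.15. In bulk RNA, a change in the share of cells that express a gene and a change in the RNA per cell cannot be told apart.

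**Figure D1:**
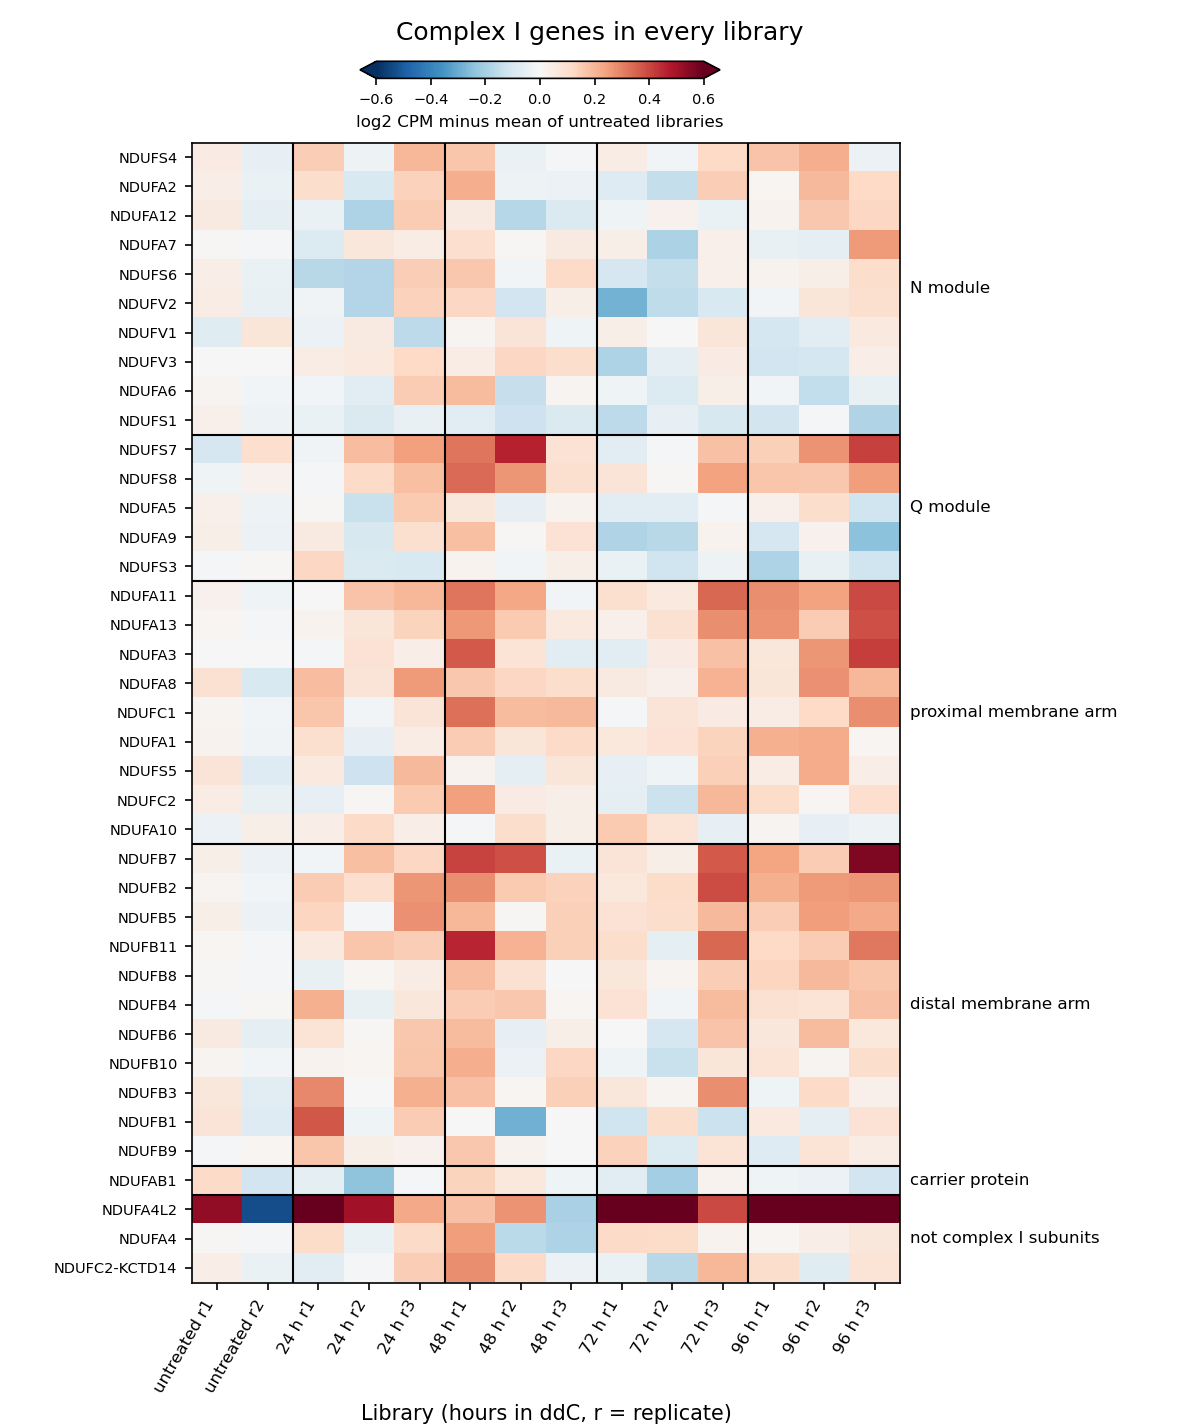
Each cell is the log2 CPM of a gene (39 rows, grouped by module) in a library (columns, untreated first and then by hours in ddC), minus the mean of the untreated libraries. Most subunit cells are pale, with 48 h replicate 1 and 72 h replicate 3 the warmest columns of their groups. Some are strongly coloured, such as NDUFB7 in 96 h replicate 3 (78.6 CPM, against 54.6 and 52.2 CPM in untreated cells). NDUFA4L2 is the one row with saturated colour in all 3 libraries at 96 h.

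No subunit gene passed edgeR's test at any time in the fit over all 5 groups, though some other fits called up to 3 subunits at 96 h (NDUFA11, NDUFA13 and NDUFB2). At 24 h, 0 of the 40 genes passed edgeR's test, where 0% of all genes tested did, and 0 had an unadjusted p under 0.05. DESeq2 and limma-voom called 0 as well at 24 h, at 48 h and at 72 h. At 48 h, edgeR called 0 of 40, beside 0.00748% of all genes, with 5 subunits at an unadjusted p under 0.05, all of them higher (419 of all 13371 genes tested were higher at that p and 385 lower). At 72 h, edgeR called 0 of 40, beside 0.179% of all genes, with 1 gene at an unadjusted p under 0.05, higher (531 of all genes higher and 436 lower). At 96 h, 5.68% of all genes were called and 1 of the 40, NDUFA4L2. Of the 37 subunits, 10 had an unadjusted p under 0.05 at 96 h, all higher, beside 1448 higher and 1199 lower of the 13371 genes tested.

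The intervals limit how far the subunits could have moved. At 24 h and at 72 h, the 95% confidence intervals of all 37 log2 fold changes lay within 0.5 of 0, that is, within a 1.41-fold change either way. At 48 h this held for 35 of the 37, and at 96 h for 33, with all 37 within a 2-fold change at both times. The intervals are per gene and are not adjusted for their number. The lowest bound of any subunit at 96 h was -0.29 and the highest was 0.66.

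Small differences leaned upward. Of the 37 subunits, 29 lay above 0 at 24 h (median log2 fold change 0.07), 34 at 48 h (0.09), 22 at 72 h (0.03) and 28 at 96 h (0.10). Over all genes tested the medians were 0.00 at each of these times. Single libraries carried much of these medians. Without untreated replicate 2 the median was 0.04 at 24 h (26 above 0), 0.00 at 72 h (19) and 0.05 at 96 h (27). Without 48 h replicate 1 it was 0.05 at 48 h (27), and without 72 h replicate 3 it was -0.00 at 72 h (17). Libraries of ddC and untreated cells did not overlap, with ddC higher, for 6 of the 37 at 24 h (7.8% of all genes), 10 at 48 h (11.7%), 7 at 72 h (12%) and 14 at 96 h (20.6%). They did not overlap with ddC lower for 1 subunit at 24 h (8.11% of all genes), 1 at 48 h (12%), 3 at 72 h (12.2%) and 2 at 96 h (19.8%). All 4 comparisons share the untreated libraries, so these counts are not separate evidence.

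Inside groups, libraries with more nuclear RNA tended to have a lower subunit sum. A score of 4 nuclear transcripts (MALAT1, KCNQ1OT1, MEG3 and NEAT1, as their mean log2 CPM) was 4.24 in 48 h replicate 1, the library with the highest subunit sum (2437 CPM), and 6.79 in 72 h replicate 2, the one with the lowest (2135 CPM). In 4 of the 5 groups, the library lowest in nuclear RNA had the highest subunit sum, and 96 h was the exception. The library highest in nuclear RNA had the lowest subunit sum in 3 of the 5. The untreated group has 2 libraries, so its place in both counts is the same observation. With the score as a covariate, the median of the 37 at 96 h was 0.07. An index of opposite-strand reads (reads of scarce genes opposite 245 abundant ones, per 1000 reads of the abundant genes) was higher at the later times. It was 1.06 to 1.16 in the libraries at 72 h and 96 h, against 0.852 and 0.931 in untreated cells. At 24 h it was 0.782 to 0.907 and at 48 h 0.914 to 1.09. The index counts every read of the scarce genes, so their own transcripts and reads from the wrong strand cannot be told apart in it. With that index as a covariate the median at 96 h was 0.22, with 30 of the 37 above 0.

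**Figure D2:**
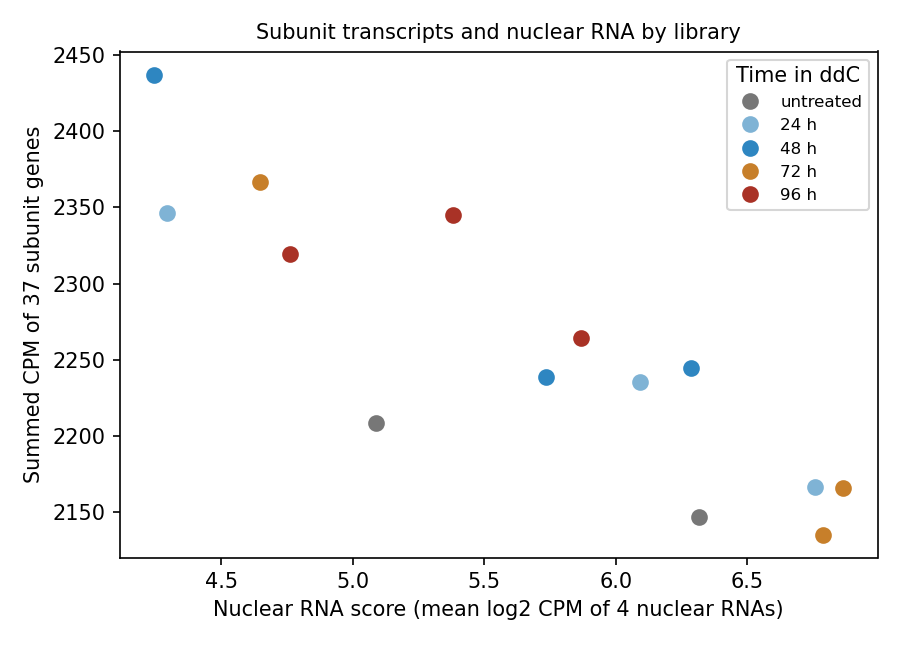
Summed CPM of the 37 subunit genes (vertical axis) against the nuclear RNA score (horizontal axis, mean log2 CPM of 4 nuclear RNAs) in the 14 libraries, coloured by hours in ddC. The libraries run from 2437 CPM at a score of 4.24 to 2135 CPM at 6.79, and libraries of the same group lie far apart along the score.

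Short, GC-rich transcripts also tended to lie higher in the ddC libraries across the whole table, and the complex I genes are short. Their median length was 886.5 bases, against 3093 over all genes tested, and their median GC content was 51.8%, against 48.7%. Across the 37 subunits at 96 h, Spearman's rho of the log2 fold change was -0.45 with length and 0.36 with GC content, and across all genes it was -0.21 and 0.20. These are descriptions across genes, which are not independent replicates. Corrected for length, the median of the 37 was 0.03 at 24 h, 0.03 at 48 h, -0.00 at 72 h and 0.04 at 96 h, with 22 of 37 above 0 at 96 h.

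The arms of the enzyme differed in where their genes lay. Of 20 membrane arm subunits, 20 were above 0 at 24 h (median 0.08), 19 at 48 h (0.11), 18 at 72 h (0.08) and 19 at 96 h (0.15). Of 16 matrix arm subunits, 9 were above 0 at 24 h (0.02), 14 at 48 h (0.03), 4 at 72 h (-0.04) and 9 at 96 h (0.03). Without 48 h replicate 1, 8 of the 16 were above 0 at 48 h (-0.00), and without 96 h replicate 3, 8 were at 96 h (-0.01). Without 24 h replicate 2, 12 were at 24 h (0.07). The membrane arm also varied: 14 of its 20 were above 0 at 72 h without 72 h replicate 3 (0.04). At 24 h, 17 of its 20 were above 0 without 24 h replicate 3 (0.08). With the length correction, the medians at 96 h were 0.08 for the membrane arm (16 of 20 above 0) and -0.03 for the matrix arm (6 of 16). With length and GC corrected together they were 0.09 and -0.04. The difference between arms was not tested.

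**Figure D3:**
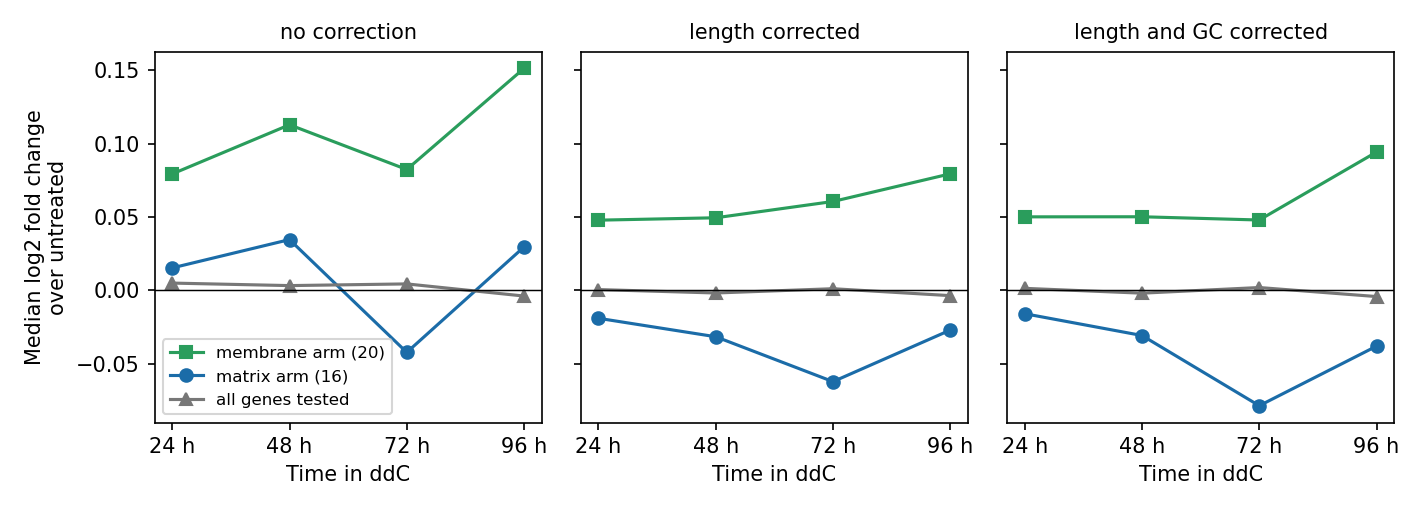
Median log2 fold change over untreated cells at 24, 48, 72 and 96 h for 20 membrane arm genes, 16 matrix arm genes and all genes tested, in 3 fits: without correction, with transcript length corrected, and with length and GC content corrected. The membrane arm median is above the matrix arm median at every time in all 3 panels, and both are lower with the corrections.

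The 7 core subunits encoded in the nucleus carry electrons through the matrix arm to ubiquinone or frame that path. Above 0 were 2 of them at 24 h, 6 at 48 h, 3 at 72 h and 3 at 96 h, with medians of -0.01, 0.02, -0.06 and -0.04. NDUFV1, which binds NADH and the flavin, had 85.0, 87.2 and 95.2 CPM at 96 h, against 86.7 and 96.2 CPM in untreated cells. The groups overlapped, with a log2 fold change of -0.04 (95% interval -0.19 to 0.11). NDUFV2, the iron-sulfur partner of NDUFV1, had 40.2, 42.9 and 43.6 CPM at 96 h, against 42.0 and 39.5 CPM in untreated cells. These too overlapped (0.05, -0.15 to 0.25). At 72 h NDUFV2 stood lower, at 33.5, 36.7 and 38.2 CPM, below both untreated libraries, with a log2 fold change of -0.17 that did not pass (edgeR adjusted p = 0.734).

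NDUFS1, the largest matrix subunit, with several iron-sulfur clusters, had 101.1, 108.3 and 96.3 CPM at 96 h, against 111.5 and 106.7 CPM in untreated cells. The groups overlapped, and the log2 fold change of -0.10 (-0.23 to 0.03) was among the 3 lowest of the 40 genes. NDUFS3, a Q module subunit that joins the earliest assembly intermediate, had 39.6, 43.6 and 41.4 CPM at 96 h, against 44.7 and 45.1 CPM in untreated cells. All 3 libraries at 96 h lay below both untreated ones, yet the log2 fold change of -0.11 (-0.28 to 0.05), the lowest of the 40, did not pass (edgeR adjusted p = 0.453). NDUFS3 overlaps KBTBD4 on the other strand, as NDUFV2 does NDUFV2-AS1 and NDUFB2 does NDUFB2-AS1.

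NDUFS7 and NDUFS8, which carry the last iron-sulfur clusters before ubiquinone, had the highest log2 fold changes of the core subunits at 96 h. NDUFS7 had 27.8, 30.3 and 33.5 CPM at 96 h, against 23.5 and 27.0 CPM in untreated cells. The groups were just apart, and the log2 fold change was 0.28 ± 0.12 (SE; edgeR adjusted p = 0.189). NDUFS8 had 51.9, 51.6 and 55.0 CPM at 96 h, against 45.3 and 47.1 CPM in untreated cells, a log2 fold change of 0.19 ± 0.09 (SE; edgeR adjusted p = 0.215). The libraries of NDUFS8 did not overlap either. At 48 h these genes stood at 0.29 and 0.24, and at 72 h at 0.03 and 0.11, none of which passed. NDUFA9, an accessory Q module subunit at the junction with the membrane arm, was the remaining one of the 3 lowest. It had 58.4, 63.9 and 52.8 CPM at 96 h, against 64.3 and 61.2 CPM in untreated cells (-0.10, -0.29 to 0.08), with overlapping groups.

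Among membrane arm genes, the 2 with the largest log2 fold changes at 96 h were NDUFB7 and NDUFA11. NDUFB7 (hg19 chromosome 19, 14676890 to 14682889, minus strand) encodes an accessory subunit of the distal arm that faces the intermembrane space. It had 62.9, 59.2 and 78.6 CPM at 96 h, against 54.6 and 52.2 CPM in untreated cells. All 3 libraries at 96 h were higher, replicate 3 most of all, and the log2 fold change was 0.33 ± 0.15 (SE; edgeR adjusted p = 0.259). It was 0.19 without 96 h replicate 3, 0.14 with length and GC corrected, below the 0.19 of NDUFA11 in that fit, and 0.61 with the opposite-strand index as a covariate, and NDUFB7 passed in none of the fits. NDUFA11 (hg19 chromosome 19, 5894681 to 5904024, minus strand) encodes an accessory subunit that helps to hold the membrane arm together. It had 92.3, 89.8 and 100.1 CPM at 96 h, against 77.6 and 74.6 CPM in untreated cells. The groups were clearly apart, at 94.1 ± 5.37 CPM (SD, n = 3) and 76.1 ± 2.07 CPM (SD, n = 2). The log2 fold change of 0.31 ± 0.10 (SE) missed the threshold (edgeR adjusted p = 0.0745). NDUFA11 passed in several other fits, among them that with only the compared groups (edgeR adjusted p = 0.00175) and that with length and GC corrected (0.19, edgeR adjusted p = 0.0382). Over all other fits its adjusted p ran from 0.00175 to 0.375.

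NDUFA13, also called GRIM-19, and NDUFB2 were looked at because other fits called them, after their values were seen. NDUFA13 had 112.5, 103.8 and 122.0 CPM at 96 h, against 94.1 and 92.8 CPM in untreated cells, with no overlap. Its log2 fold change was 0.27 ± 0.08 (SE, edgeR adjusted p = 0.0527). It was the one gene of the 40 that DESeq2 called at 96 h, where NDUFA4L2 got no adjusted p from DESeq2. NDUFA13 stood at 0.18 with length corrected and 0.12 with length and GC corrected (edgeR adjusted p = 0.0985 and 0.174). Over all other fits its adjusted p ran from 0.00600 to 0.411. NDUFB2 had 52.6, 54.2 and 54.6 CPM at 96 h, against 45.8 and 44.9 CPM in untreated cells (0.24 ± 0.09, SE; edgeR adjusted p = 0.114). All 3 libraries at 96 h lay above both untreated ones, with little spread among them. NDUFAB1, the mitochondrial acyl carrier protein, serves both arms and also fatty acid synthesis, and it stood at -0.06 (-0.25 to 0.12) at 96 h.

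**Figure D4:**
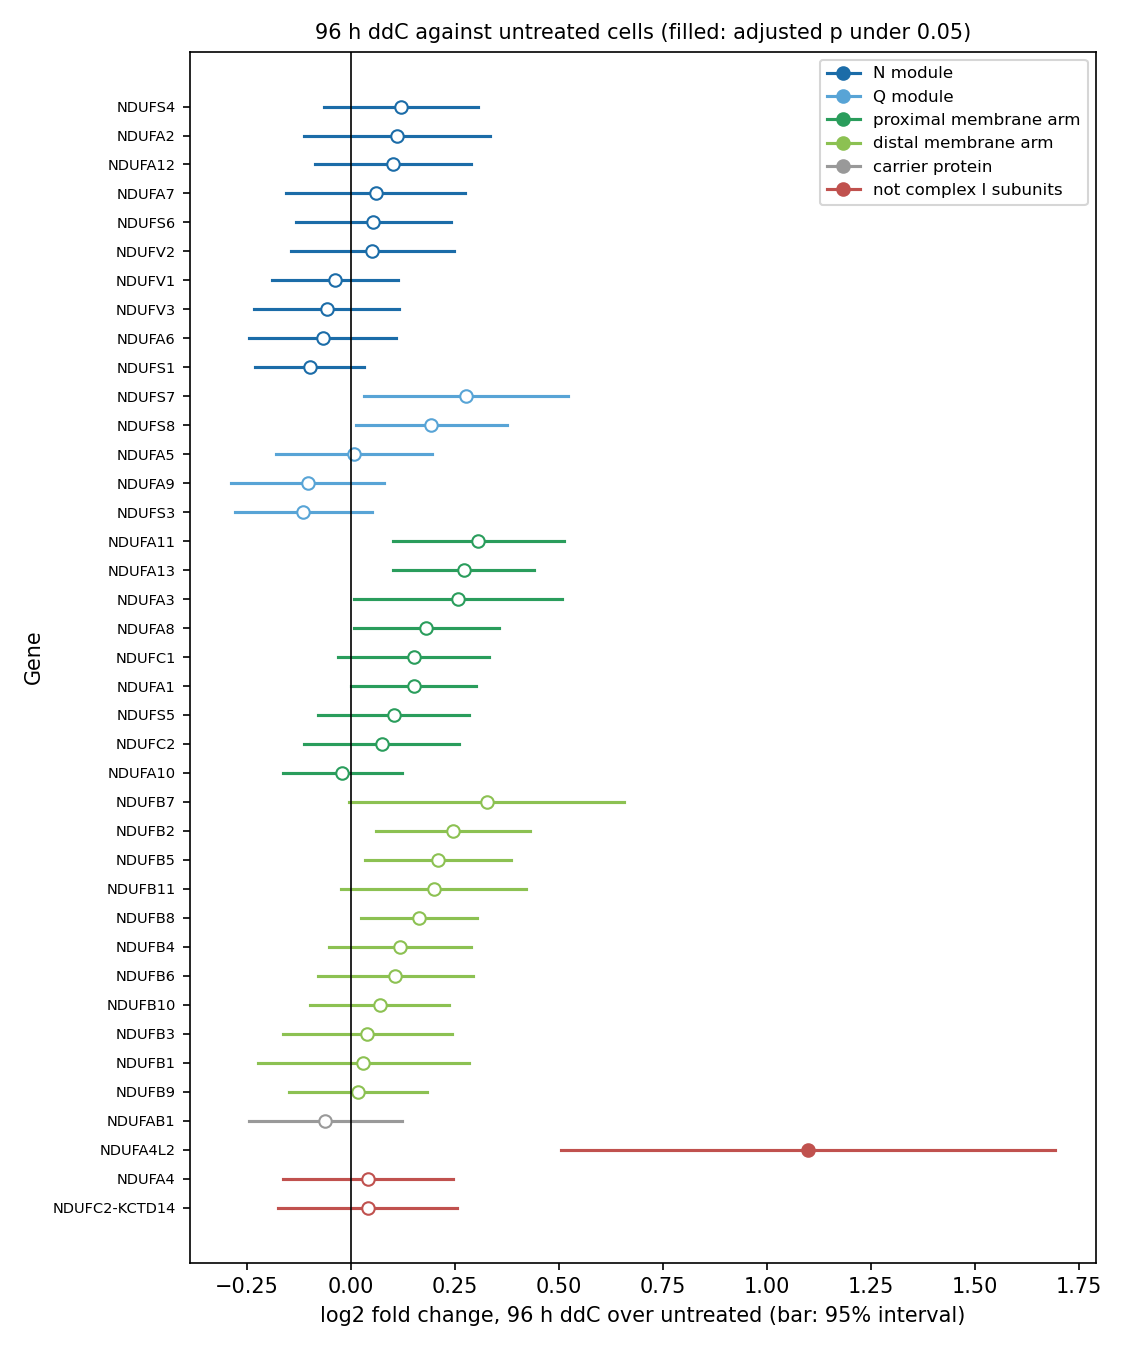
Log2 fold change of 39 of the 40 genes at 96 h of ddC over untreated cells (points) with its 95% interval (bars), grouped and coloured by module, with a filled point for an adjusted p under 0.05. NDUFA4L2 at 1.10 is the one filled point, and all 11 distal membrane arm genes are above 0.

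Between treated times, edgeR called 0 of the 40 at 96 h against 24 h, where 3.2% of all genes were called, and 0 of the 40 at 96 h against 72 h, where 0.516% were. DESeq2 and limma-voom called 0 in both, and 3 of the 40 had an unadjusted p under 0.05 in each, all higher, beside 1187 higher and 848 lower of all genes against 24 h and 868 higher and 676 lower against 72 h. Of the 37 subunits, 26 lay above 0 at 96 h against 24 h (median 0.04) and 31 at 96 h against 72 h (median 0.08). The lean against 24 h rested on 1 library: without 24 h replicate 2, 17 lay above 0 (median -0.01). That median was 0.02 once the nuclear RNA score was a term in the fit, and 0.02 with length corrected, each with 22 above 0. Without 72 h replicate 3 the median against 72 h was 0.12. NDUFV2 was 0.23 (0.05 to 0.40) and NDUFS7 0.24 (0.03 to 0.46) at 96 h against 72 h, neither of which passed (edgeR adjusted p = 0.303 and 0.373).

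NDUFA4L2 was the single gene of the 40 called at 96 h in the fit over all groups, a call that several other fits did not make. Its protein is a relative of NDUFA4, known as a target of hypoxia-inducible factors (HIF) that lowers complex I activity and oxygen use. The gene lies on hg19 chromosome 12, 57628686 to 57634475, minus strand. It had 5.35, 3.48 and 5.21 CPM at 96 h, against 2.95 and 1.41 CPM in untreated cells. All 3 libraries at 96 h were higher than both untreated ones, although 96 h replicate 2 came near untreated replicate 1. The counts behind these values were 62, 40 and 62 reads at 96 h, against 34 and 16 in untreated cells. The log2 fold change was 1.10 ± 0.29 (SE; edgeR adjusted p = 0.0250), with a 95% interval of 0.50 to 1.69.

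The earlier times did not show a steady climb of NDUFA4L2. It had 3.88, 2.89 and 2.38 CPM at 24 h, 2.30, 2.46 and 1.78 CPM at 48 h and 3.21, 3.15 and 2.69 CPM at 72 h. Log2 fold changes over untreated cells were 0.47 at 24 h, -0.01 at 48 h and 0.47 at 72 h, and none passed. At 96 h against 24 h the log2 fold change was 0.63 (0.13 to 1.13, edgeR adjusted p = 0.189), and at 96 h against 72 h it was 0.63 (0.14 to 1.13, edgeR adjusted p = 0.301).

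The call of NDUFA4L2 rests on few reads. It ended without 96 h replicate 1 (0.99, edgeR adjusted p = 0.0925), without 96 h replicate 3 (1.01, edgeR adjusted p = 0.102) and without untreated replicate 2 (0.67, edgeR adjusted p = 0.395). The gene overlaps SHMT2, an abundant enzyme of mitochondrial folate metabolism, on the other strand. SHMT2 stood at 249, 235 and 266 CPM at 96 h, against 208 and 218 CPM in untreated cells. The opposite-strand index was 1.15, 1.08 and 1.16 at 96 h, against 0.852 and 0.931 in untreated cells. At each library's index, SHMT2 would give NDUFA4L2 between 1.9 and 3.7 reads over the 14 libraries. Genes at 1% or more of their abundant partner were left out when the index was built. That choice holds the index low, so these reads set no upper limit. Reads from the wrong strand were not measured at this locus itself, and their part in the result was not tested. With the index as a covariate the log2 fold change was 1.02, and the call ended (edgeR adjusted p = 0.246). With the index and the nuclear RNA score together it was 1.26 and also not called (edgeR adjusted p = 0.260), and over all other fits the adjusted p ran from 0.00231 to 0.395.

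NDUFA4 itself, once counted as a complex I subunit and since placed with cytochrome c oxidase (complex IV), stood near its untreated level. It had 61.7, 62.9 and 64.2 CPM at 96 h, against 61.4 and 60.8 CPM in untreated cells, which were apart by less than 1 CPM at the nearest. The log2 fold change was 0.04 (-0.16 to 0.25, edgeR adjusted p = 0.868). EPAS1, which encodes HIF-2 alpha and was the highest of 13 tested regulators of respiratory genes, had 515, 504 and 522 CPM at 96 h, against 339 and 341 CPM in untreated cells. It rose by 0.59 ± 0.06 on the log2 scale (SE; edgeR adjusted p = 7.53e-06). EPAS1 also passed at 72 h, with 420, 412 and 467 CPM (0.35 ± 0.06, SE; edgeR adjusted p = 0.0185), a call lost without any 1 of 72 h replicates 1 and 3 and the untreated libraries (highest adjusted p = 0.368), with only the compared groups and with the opposite-strand index as a covariate. At 96 h its adjusted p was at most 7.93e-04 in the other fits. CA9, a carbonic anhydrase and HIF target chosen after its values were seen, had 4.54 ± 0.63 CPM at 96 h (SD, n = 3) and 1.53 ± 0.04 CPM in untreated cells (SD, n = 2). That is a rise of 1.56 ± 0.26 on the log2 scale (SE, edgeR adjusted p = 7.53e-04), and at such levels it rests on few reads. Other HIF targets were not surveyed, and HIF1A, also among the 13 regulators, was not called at 96 h. The call of CA9 held in each of the 14 fits that left out a library and was lost with the index and nuclear RNA score together (1.87, edgeR adjusted p = 0.0569), and DESeq2 gave CA9 no adjusted p.

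**Figure D5:**
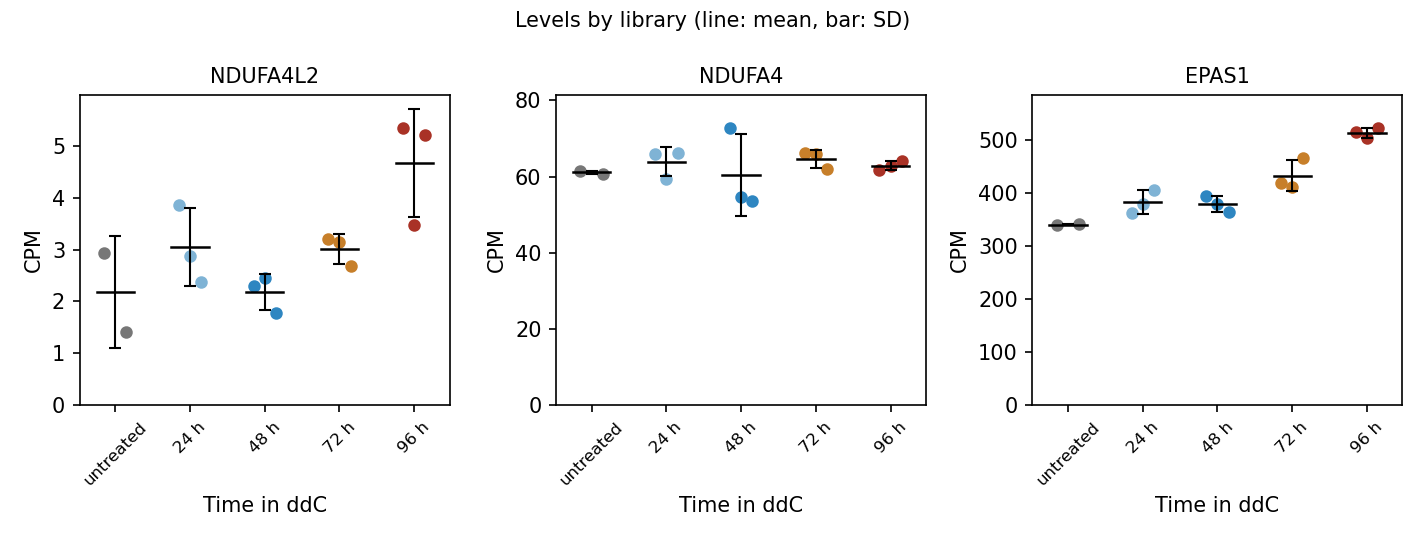
CPM of NDUFA4L2, NDUFA4 and EPAS1 in each library (points) by time in ddC, with the group mean (line) and SD (bar, n = 2 for untreated cells and 3 for each time). NDUFA4L2 and EPAS1 are highest at 96 h, and NDUFA4 at 96 h (61.7 to 64.2 CPM) lies next to the untreated libraries (60.8 and 61.4 CPM).

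The promoters of these genes are shown to set NDUFA4L2 beside its relative NDUFA4 and beside the subunits at either end of the 96 h range. RefSeq windows on GRCh38.p14, from 250 bases before to 50 after the start, were found for 35 of the 40 genes. The windows are those of NDUFA4L2 (chr12:57240713-57241012, minus strand, the first of 2 overlapping ones), NDUFA4 (chr7:10940104-10940403, minus strand), NDUFB7 (chr19:14572017-14572316, minus strand), NDUFA11 (chr19:5903741-5904040, minus strand) and NDUFS3 (chr11:47578824-47579123, plus strand). Each is written 5' to 3' on the strand of the gene. Capitals mark letters searched for on both strands: GCGCANGCG (NRF1, nuclear respiratory factor 1), CCGGAAG (ETS factors such as GABPA), AAGATGGCG (YY1), and ACGTG and GCGTG, the core forms of the hypoxia-response element.
NDUFA4L2: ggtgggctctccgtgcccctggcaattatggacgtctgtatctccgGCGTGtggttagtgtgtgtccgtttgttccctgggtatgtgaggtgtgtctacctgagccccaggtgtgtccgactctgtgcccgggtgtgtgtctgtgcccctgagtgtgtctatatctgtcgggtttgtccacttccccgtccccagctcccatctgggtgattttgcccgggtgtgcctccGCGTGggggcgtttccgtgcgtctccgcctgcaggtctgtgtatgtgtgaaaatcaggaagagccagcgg
NDUFA4: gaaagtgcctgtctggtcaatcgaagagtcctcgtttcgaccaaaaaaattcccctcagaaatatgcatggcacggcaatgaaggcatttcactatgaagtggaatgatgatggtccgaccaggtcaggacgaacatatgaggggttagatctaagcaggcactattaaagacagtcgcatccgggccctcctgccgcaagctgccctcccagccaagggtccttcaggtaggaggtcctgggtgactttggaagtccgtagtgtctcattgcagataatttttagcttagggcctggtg
NDUFB7: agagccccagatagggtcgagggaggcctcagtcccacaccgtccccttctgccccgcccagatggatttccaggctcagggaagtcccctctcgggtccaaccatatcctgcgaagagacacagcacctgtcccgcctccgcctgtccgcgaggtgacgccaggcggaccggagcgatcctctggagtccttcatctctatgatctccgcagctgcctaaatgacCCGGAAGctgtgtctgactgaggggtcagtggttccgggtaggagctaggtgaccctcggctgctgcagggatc
NDUFA11: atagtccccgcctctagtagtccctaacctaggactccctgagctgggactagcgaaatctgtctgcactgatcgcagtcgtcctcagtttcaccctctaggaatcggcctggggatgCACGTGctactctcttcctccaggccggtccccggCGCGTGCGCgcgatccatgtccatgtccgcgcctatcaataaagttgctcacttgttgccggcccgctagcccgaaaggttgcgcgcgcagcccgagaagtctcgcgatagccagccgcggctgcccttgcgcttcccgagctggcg
NDUFS3: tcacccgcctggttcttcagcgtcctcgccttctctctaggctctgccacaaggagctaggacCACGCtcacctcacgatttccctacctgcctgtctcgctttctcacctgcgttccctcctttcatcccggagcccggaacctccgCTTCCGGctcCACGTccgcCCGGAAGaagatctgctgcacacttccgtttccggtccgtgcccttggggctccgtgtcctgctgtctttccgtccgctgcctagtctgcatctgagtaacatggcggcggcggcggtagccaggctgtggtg

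NDUFA4L2 held GCGTG at 2 places and none of the other letters, and NDUFA4 held none of the 5. NDUFB7 held CCGGAAG once. NDUFA11 held the NRF1 letters, with GCGTG overlapping them, and the palindrome CACGTG, which counts once on each strand as ACGTG. NDUFS3 held CCGGAAG at 2 places and each of the short forms once. Over 39 windows of 32 subunits, the NRF1 letters were in 25.6%, against 7.52% of all 35116 windows, and those of YY1 in 15.4%, against 1.75%. CCGGAAG was in 12.8%, against 10.3%. ACGTG was in 25.6%, against 21.4%, and GCGTG in 48.7%, against 36.5%. These are matches of letters and not sites shown to be bound.

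Assembly factors bring the modules together and do not stay in the finished enzyme. Of 19, 7 lay above 0 at 96 h (median -0.03) and 0 were called by edgeR, with 0 at an unadjusted p under 0.05. The lowest was NDUFAF7, a mitochondrial methyltransferase, at -0.25 (-0.54 to 0.03), and the highest TMEM261, also known as DMAC1, at 0.22 (-0.01 to 0.45). A chosen list of 41 nuclear genes of complexes II to V had 27 above 0 (median 0.03) and 0 called by edgeR. The complexes differed: 1 of 4 genes lay above 0 for complex II (median -0.03) and 6 of 9 for complex III (0.06). For complex IV it was 8 of 10 (0.12) and for complex V 12 of 18 (0.02). Of the 41, 7 were higher and 1 lower at an unadjusted p under 0.05. The list holds ATPIF1, an inhibitor of complex V, and leaves out NDUFA4. At the top of complex V was ATP5D, the delta subunit of its rotor, with 52.9 ± 2.83 CPM at 96 h (SD, n = 3) and 40.6 ± 2.74 CPM in untreated cells (SD, n = 2), a log2 fold change of 0.38 that did not pass (edgeR adjusted p = 0.0749). UQCR11 was the highest of complex III at 0.28 and COX5B of complex IV at 0.29, while COX7B was the lowest of complex IV at -0.25. The lowest of complex III was UQCRC2 at -0.03 and the lowest of complex V USMG5 at -0.11. SDHD, at 0.00, and SDHA, at -0.13, bounded complex II. None of these passed.

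Among the 13 tested regulators, EPAS1 rose and TFAM fell at 96 h. TFAM, which packages mtDNA and starts its transcription, had 39.0, 42.4 and 36.7 CPM at 96 h, against 49.2 and 48.6 CPM in untreated cells. It fell by 0.31 on the log2 scale (SE 0.09, edgeR adjusted p = 0.0449), and all 3 libraries were below both untreated ones. The call held in 7 of the 14 fits that left out a library. It was lost without 48 h replicate 1, 72 h replicate 1 or 2, 96 h replicate 1 or 3 or either untreated library (adjusted p up to 0.229), and also in DESeq2 (adjusted p = 0.0508), with length corrected (edgeR adjusted p = 0.0710), with the opposite-strand index as a covariate (edgeR adjusted p = 0.330) and with the index and nuclear RNA score together (edgeR adjusted p = 0.248). Over all these fits its log2 fold change stayed between -0.37 and -0.26. PPRC1, a coactivator of the PGC-1 family, was the lowest at -0.36 ± 0.11 (SE) and just missed the threshold (edgeR adjusted p = 0.0517). NRF1 stood at -0.24 and GABPA at -0.20, and neither passed.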

How the data were processed

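Libraries of polyadenylated RNA (14 in all) were made with a strand-marking kit, per the labels' protocols. The submitters' processing notes name STAR 2.5.3a, HOMER and the build hg19. The strand setting used in counting is not given in the sources used here. The authors deposited integer counts for 27142 genes, not normalized. They were tested whole with edgeR 4.0.16 in R 4.3.3: TMM factors (0.971 to 1.02), filterByExpr (minimum count 10, minimum total 15) and robust quasi-likelihood F tests, two-sided, in a model of 5 group means over 14 libraries. SE is the log2 fold change divided by the square root of F. CPM uses TMM-scaled totals, and depth was 9398703 to 12147402 counts, with 2 or 3 libraries a group. Intervals use the spread estimated over all 14 libraries, and not only that of the 2 groups compared. Alternatives used DESeq2 1.42.0, limma-voom 3.58.1, other normalizations, filters and covariates. Tests were checked on simulated counts with the same spread for every gene and no built-in differences in nuclear RNA, strand or transcript length. Changes were not set in genes as low as NDUFA4L2, so the check does not cover these. GC content came from GENCODE 29 by symbol.

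Genes named in full were those called, the 3 highest and 3 lowest at 96 h, the 7 core subunits, NDUFA4 and NDUFA4L2. The result of 1 core subunit is not reported here. Of the other lists they were called genes and the highest and lowest. The members and lists were chosen with earlier results of these data known. Same-numbered libraries did not deviate together throughout (r from -0.38 to 0.63, with 11 of 26 pairs over 0.1). Libraries of different numbers had r from -0.50 to 0.54. Replicate 2 at 24 h went with replicate 2 at 48 h (0.49) and against replicate 2 at 96 h (-0.35). Numbers were not taken as pairs, though pairing of some libraries is not excluded.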

Additional observations from a re-analysis of the deposited data

How the results depend on the processing

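At 24, 48 and 72 h against untreated cells, and at 96 h against 72 h, every fit called 0 of the 40 genes. At 96 h against 24 h, 1 fit made 1 call, that of NDUFA4L2 with the nuclear RNA score added as a term (0.67, edgeR adjusted p = 0.0493). At 96 h against untreated cells the number called, 1, became 2 with no filter on low counts (NDUFA13 added), 4 with only the compared groups or with the nuclear RNA score (NDUFA11, NDUFA13 and NDUFB2 added), 2 with transcript length and GC corrected (NDUFA11 added), 0 with the opposite-strand index and nuclear RNA score together, and 0 to 4 with 1 library left out. DESeq2 called NDUFA13 in place of NDUFA4L2, to which it gave no adjusted p, and the opposite-strand index as a covariate gave NDUFA11 in its place. The median of the 37 subunits at 48 h was 0.032 with length corrected and 0.011 with length and GC corrected. At 96 h it was 0.036 with length corrected and 0.22 with the index as a covariate. The index also gave 0.15 at 72 h and 0.21 at 96 h against 24 h, and the nuclear RNA score gave 0.015 at 96 h against 72 h. The causes of these shifts were not tested. With 1 library left out, the median ran from 0.04 to 0.08 at 24 h, 0.05 to 0.11 at 48 h, -0.00 to 0.06 at 72 h and 0.05 to 0.12 at 96 h, and at 96 h from -0.01 to 0.07 against 24 h and 0.04 to 0.12 against 72 h. Replicate numbers did not pair the libraries throughout, and 6 of 14 libraries lay closest to one of the same number. The replicate block gave 1 call at 96 h (NDUFA4L2, 1.17, edgeR adjusted p = 0.0115) and no other call among the 40. With the block, 27 subunits lay above 0 at 24 h, 30 at 48 h and 20 at 72 h, with medians of 0.04, 0.07 and 0.01, against 29, 34 and 22 without it (0.07, 0.09 and 0.03), and matrix arm genes above 0 at 48 h numbered 11, against 14. The length and GC correction and both index covariates were chosen after seeing the data.

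At these depths and with 2 untreated libraries, the 95% intervals of 33 of the 37 subunits at 96 h lay within a 1.41-fold change. Smaller changes could be called for some genes (SHMT2, 0.23, edgeR adjusted p = 0.0281), while a larger difference of a subunit than that was not (NDUFB7, 0.33, edgeR adjusted p = 0.259). A subunit that was not called is therefore not shown to be unchanged. RNA was measured, not protein or enzyme activity. Levels of mtDNA-encoded subunits were not analysed here. The opposite-strand index was higher in all libraries at 72 h and 96 h than in untreated cells, so the index and these times can barely be told apart.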
